A study of Mus musculus with 9 samples.

Results

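The FoxO transcription factors followed here were Foxo1, Foxo3 and Foxo4, 3 of the 13722 genes with values in plantaris muscle. Foxo6, also measured, is given with the other forkhead genes. The 3 members were taken by gene symbol, and each symbol had 1 row. The family was selected on the measured RPKM of Foxo1, which was higher after hypoxia in these same libraries, so its differences from control are described without a test. The muscle came from male C57BL/6J mice aged 3 months that breathed 8% oxygen for 0 h (control), 2 h or 6 h. Each group had 3 libraries made from total RNA of the whole muscle, a fast muscle of the hind limb. All animals were of 1 strain and sex, and the labels name no engineered allele. Both times share the controls at 0 h, so an effect of hypoxia cannot be told apart from one of the hours spent or the time of day.

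FoxO proteins are forkhead transcription factors that bind DNA and switch on genes of protein breakdown, autophagy, fuel use, stress defence and cell cycle arrest. Insulin and growth factors act through the kinase Akt, which phosphorylates FoxO proteins, and 14-3-3 proteins then hold them in the cytoplasm. When this signal falls they enter the nucleus. In skeletal muscle they are known for inducing the ubiquitin ligases atrogin-1 (Fbxo32) and MuRF1 (Trim63) during wasting. Much of this control acts on the protein, which was not measured here.

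In the deposited table, whose coordinates are those of the mouse build mm9, Foxo1 (ENSMUSG00000044167) lies on chromosome 3 from 52072259 to 52154031, on the plus strand. Foxo3 (ENSMUSG00000048756) lies on chromosome 10 from 41901647 to 41996561, on the minus strand. Foxo4 (ENSMUSG00000042903) lies on the X chromosome from 98449867 to 98456212, on the plus strand, in a far shorter locus of 6346 bp. The exon lengths implied by the values were 5549 bp for Foxo1, 2885 bp for Foxo3 and 3159 bp for Foxo4. The longest transcripts in GENCODE M21 have 8665, 6848 and 3162 nt, so the Foxo1 and Foxo3 values do not cover the full length of the longest ones.

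The same table lists, for each gene, microRNAs predicted to target it, with 90 names for Foxo1, 126 for Foxo3 and 78 for Foxo4. MicroRNAs silence mRNAs by pairing of their seed, bases 2 to 8, with the 3′ UTR, and none was measured in these libraries. Beside all 3 genes stood 6 names, among them miR-96 and miR-1271, and 13 more, among them miR-182, stood beside Foxo1 and Foxo3. Of all 13722 genes, 20% listed miR-96, 5.25% miR-1271 and 20.7% miR-182. These 3 are printed from RefSeq (GRCm38.p6), with the seed in capitals, because they share most of it. miR-96 and miR-1271 have the same seed, and that of miR-182 is close to it but not the same.
mmu-miR-96-5p: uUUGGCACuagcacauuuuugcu
mmu-miR-1271-5p: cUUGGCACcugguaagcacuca
mmu-miR-182-5p: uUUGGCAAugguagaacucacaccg

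The letters opposite these seeds were looked for in the 3′ UTR of the longest GENCODE M21 transcript of each gene (GRCm38). GTGCCAA, opposite the miR-96 and miR-1271 seed, occurred once in Foxo1 (chr3:52347231-52347253) and once in Foxo4 (chrX:101259744-101259766). TTGCCAA, opposite the miR-182 seed, occurred once in Foxo1 (chr3:52350872-52350894) and at 2 positions in Foxo3 (chr10:42186246-42186268 and chr10:42185427-42185449). GTGCCAA was not among the letters of this Foxo3 UTR, and TTGCCAA was not among those of the Foxo4 UTR. Only the whole seed was searched, so shorter matches are not excluded. The run TGCCAA, opposite the letters that all of these seeds share, lies within every match found, those of Foxo3 included. The matches are printed in transcript direction with the paired letters in capitals, and they are descriptions of sequence, not measured sites.
Foxo1, GTGCCAA: ttacaatgaaGTGCCAAactcac
Foxo4, GTGCCAA: ttgtctcactGTGCCAAttaggg
Foxo1, TTGCCAA: gtgtttgctcTTGCCAAaagctg
Foxo3, TTGCCAA, nearer the stop codon: agaaaaccctTTGCCAAatctgc
Foxo3, TTGCCAA, farther: cctctgcccgTTGCCAAatgcca

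Libraries held between 72706716 and 137097898 recovered reads, and the lowest total was that of 6 h replicate 3. Fast fibre genes summed to between 94280 and 112800 RPKM (reads per kilobase of exon, scaled to the size of the library, the unit of all levels below) in every library, so the defining genes of the labelled tissue were at high levels. Control replicates 2 and 3 and 6 h replicate 2 stood apart by high matrix and macrophage genes. The summed level of 6 fibroblast and matrix markers, all measured and none at 0 reads, was 651.5 to 790.0 RPKM in these 3 libraries and 250.6 to 402.5 RPKM in the other 6. By group it spanned 402.5 to 727.2 RPKM in control, 250.6 to 318.1 RPKM at 2 h and 297.8 to 790.0 RPKM at 6 h. Markers of slow fibres summed to 424.2 to 631.3 RPKM in control and at 2 h. In 6 h replicates 1, 2 and 3 they summed to 932, 1142 and 5467 RPKM. Replicate 3 thus stood apart by its sum. Every slow fibre marker lay above the control range in replicates 2 and 3, and only Myl2 and Myl3 did in replicate 1. Red cell markers summed to 2589 to 6136 RPKM at 6 h against 376.2 to 2748 RPKM elsewhere. The library of 6 h replicate 1 stood apart by Schwann cell markers, 507.3 RPKM against 34.9 to 57.2 RPKM in the other 8, and by adipocyte markers, 297.9 RPKM against 16.2 to 93.95 RPKM. Without it the difference of 6 h from control was 1.47 for Foxo1, 0.76 for Foxo3 (limma adjusted p = 0.331) and 0.25 for Foxo4 (limma adjusted p = 0.639) on the log2(RPKM + 0.5) scale. Without 6 h replicate 3 instead, the same difference was 1.39 for Foxo1. It was then 0.70 for Foxo3 (limma adjusted p = 0.311) and 0.32 for Foxo4 (limma adjusted p = 0.527). In whole muscle, fewer cells of a type and less RNA per cell cannot be told apart.

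Foxo1, the FoxO member best known for its part in insulin-regulated fuel metabolism, was higher in every hypoxic library than in any control library. Its level was 5.17, 4.47 and 4.85 RPKM in the control libraries, 9.39, 13.9 and 11.5 RPKM at 2 h, and 13.2, 13.8 and 14.7 RPKM at 6 h. Thus the controls lay close together, the 2 h libraries were spread, and the 6 h libraries lay together at the upper end. The means were 4.83 ± 0.350, 11.6 ± 2.27 and 13.9 ± 0.769 RPKM (SD, n = 3), ratios to control of 2.40 at 2 h and 2.88 at 6 h. On the log2(RPKM + 0.5) scale the difference from control was 1.17 ± 0.14 (SE) at 2 h and 1.43 ± 0.14 at 6 h. These differences chose the gene and are given as a description. At control level, 53.2% of all tested genes had a lower mean than Foxo1, and this share was 73.1% at 2 h and 75.8% at 6 h.

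Between the times, Foxo1 was not called (log2 difference of 6 h from 2 h 0.27 ± 0.14 SE, limma adjusted p = 0.360), and the groups overlapped at 13.2 to 13.9 RPKM. Its order of levels was thus control below both hypoxic groups, with 2 h and 6 h not separated by their spread. The 3 libraries with high matrix genes held both low and high Foxo1 levels, 4.47 to 13.8 RPKM. Without those 3 libraries the difference from control was 1.08 at 2 h and 1.35 at 6 h, with a single control library left. The recovered reads of Foxo1 numbered 2711 to 3570 in control, 6041 to 9869 at 2 h and 5943 to 8393 at 6 h, so counting error was small beside the spread between libraries.

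**Figure D1:**
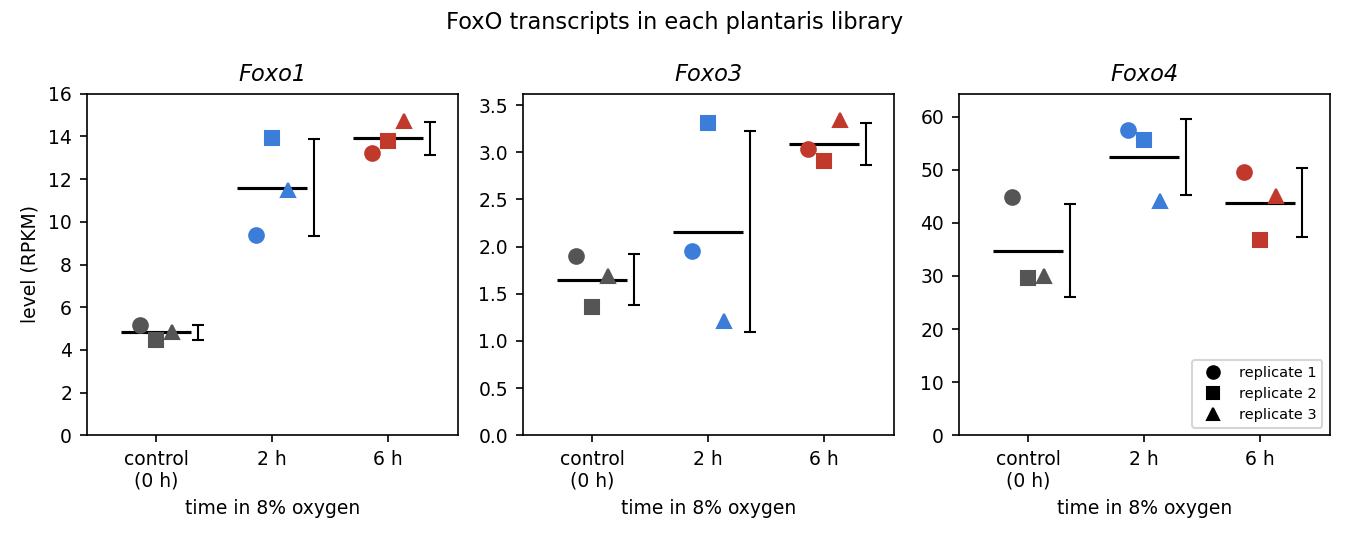
Levels of Foxo1, Foxo3 and Foxo4 (RPKM, linear axes from 0) in each of the 9 libraries by time in 8% oxygen; lines are group means and bars beside them ± 1 SD (n = 3). Foxo1 lay at 4.47 to 5.17 RPKM in control and at 9.39 to 14.7 RPKM in hypoxia, Foxo3 spread from 1.21 to 3.31 RPKM at 2 h, and the Foxo4 groups overlapped.

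The start of Foxo1 overlaps a shorter gene on the opposite strand, RP24-337A16.1 (chromosome 3, 52072357 to 52073357, mm9). How the counting used strand is not given in the sources used here, so reads of the overlap may belong to either gene. RP24-337A16.1 stood at 2.51, 1.71 and 2.17 RPKM in control, 3.07, 5.005 and 2.57 RPKM at 2 h, and 5.65, 5.33 and 6.42 RPKM at 6 h. Its 2 h libraries all lay above the controls, and its 6 h libraries lay above both groups. The log2 difference from control was 0.59 at 2 h and 1.27 at 6 h, given as a description with no test, since these reads may be those of Foxo1. Its reads came to 2.75 to 5.97% of the Foxo1 reads of the same library.

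The RefSeq promoter window of Foxo1, 250 bases before to 50 after the start, is printed because Foxo1 was the member that differed from control at both times. Hypoxia-inducible factors bind a short core, searched on both strands as ACGTG and, in its other form, as GCGTG. The second of these occurred once, as its reverse complement CACGC (capitals), beginning at position -247 from the start, and ACGTG was not found on either strand. Of all 32851 promoter windows of this length, 32.4% held GCGTG on either strand and 19.6% held ACGTG, so the match is common. The Foxo3 window held GCGTG at 3 positions and no ACGTG. Neither window held the FoxO element GTAAACA.
Foxo1 promoter, chr3:52268087-52268386, plus strand, GRCm38.p6: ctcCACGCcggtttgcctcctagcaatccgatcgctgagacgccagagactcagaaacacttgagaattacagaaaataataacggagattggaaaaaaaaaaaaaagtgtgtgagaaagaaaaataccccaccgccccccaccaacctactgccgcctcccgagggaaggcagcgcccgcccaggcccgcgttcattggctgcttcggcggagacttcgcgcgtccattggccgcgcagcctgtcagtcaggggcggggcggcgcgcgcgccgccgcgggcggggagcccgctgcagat

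Foxo3, the member most studied as a driver of atrogin-1 and autophagy in muscle, was the least abundant of the 3 in every library. It stood at 1.90, 1.36 and 1.69 RPKM in control, 1.95, 3.31 and 1.21 RPKM at 2 h, and 3.03, 2.90 and 3.34 RPKM at 6 h. The 2 h libraries ranged from below the lowest control to the level of the 6 h group, while all 6 h libraries lay above all controls. At 2 h the difference from control was 0.24 ± 0.25 (log2, SE; limma adjusted p = 0.633), and its sign rested on 2 h replicate 2, without which it was -0.063. At 6 h the mean was 3.09 ± 0.223 against 1.65 ± 0.272 RPKM in control (log2 0.75 ± 0.25 SE, limma adjusted p = 0.163). The difference of 6 h from 2 h was 0.51 ± 0.25 (log2, SE; limma adjusted p = 0.352). Neighbouring groups in the order control, 2 h, 6 h were therefore not separated by their spread. Foxo3 was counted with 428 to 1220 reads per library.

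Foxo4 was by far the most abundant member, at 44.8, 29.5 and 29.9 RPKM in control, 57.5, 55.5 and 44.1 RPKM at 2 h, and 49.5, 36.7 and 45.0 RPKM at 6 h. Its level exceeded that of 89.0 to 92.1% of tested genes in the 3 groups. Control replicate 1 lay within the range of both hypoxic groups, so control overlapped each of them. The hypoxic groups also overlapped, as 2 h replicate 3 lay below 6 h replicates 1 and 3. The difference from control was 0.60 ± 0.19 (log2, SE; limma adjusted p = 0.132) at 2 h and 0.34 ± 0.19 (limma adjusted p = 0.353) at 6 h. The 6 h group lay 0.26 ± 0.19 below the 2 h group on the same scale (log2 -0.26, limma adjusted p = 0.515). The order of group means was control, 6 h, 2 h, with no neighbours separated. The DESeq2 test on recovered reads, an alternative, called Foxo4 at 2 h (log2 0.58, adjusted p = 0.0469), while the edgeR quasi-likelihood test did not (0.56, adjusted p = 0.141).

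Foxo4 was lower in each of the 3 libraries with high matrix genes, 29.5 to 36.7 RPKM, than in each of the other 6, 44.1 to 57.5 RPKM. The same held for 639 of the 13309 tested genes (4.80%). Of these 3 libraries 2 were controls, and without all 3 the Foxo4 difference from control was 0.21 at 2 h (limma adjusted p = 0.661) and 0.07 at 6 h (limma adjusted p = 0.907). The Foxo1 differences changed little in the same fit, as given above, and Foxo3 at 6 h was 0.62 (limma adjusted p = 0.580). With all 9 libraries kept and a term for these 3 in the fit, the Foxo4 difference from control was 0.29 at 2 h (limma adjusted p = 0.32). It was 0.19 at 6 h (limma adjusted p = 0.387), and the difference of 6 h from 2 h was -0.10 (limma adjusted p = 0.681). What sets Foxo4 lower in the matrix libraries was not tested.

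**Figure D2:**
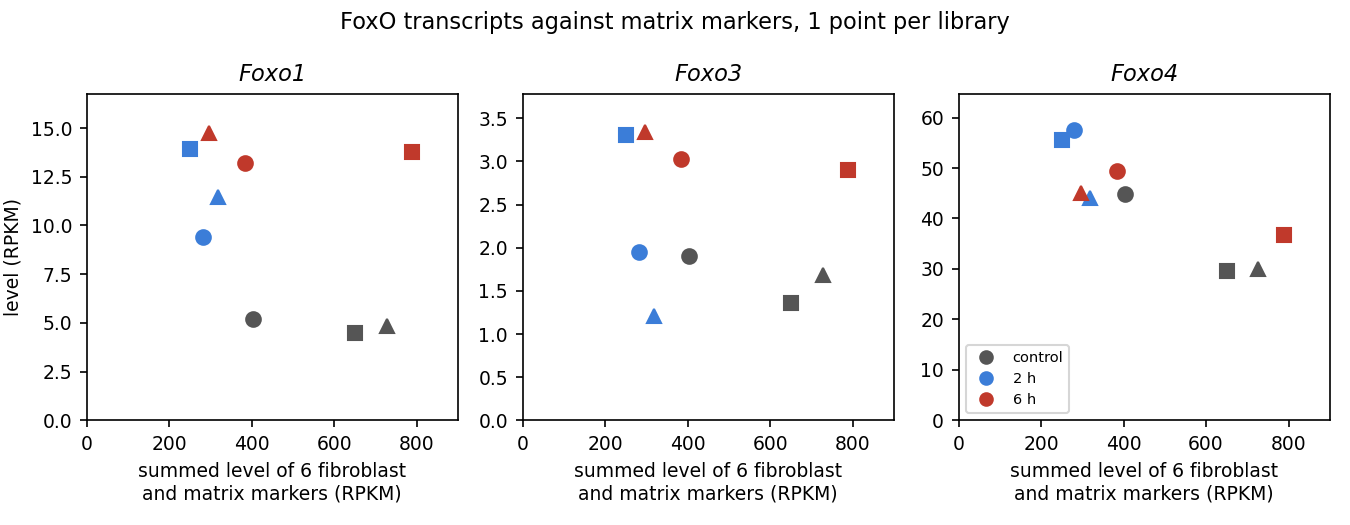
Level of each FoxO gene (RPKM, vertical) against the summed level of 6 fibroblast and matrix markers (RPKM, horizontal), 1 point per library, coloured by group, with circles, squares and triangles for replicates 1, 2 and 3. The 3 libraries to the right, at 651.5 to 790.0 RPKM of markers, had the lowest Foxo4 levels, 29.5 to 36.7 RPKM, while Foxo1 ranged from 4.47 to 13.8 RPKM among them.

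Over the family, 1 of the 3 genes had groups that did not overlap at 2 h against control, Foxo1, and 2 of 3 at 6 h, Foxo1 and Foxo3. This held for 27.5% of all tested genes at 2 h and 25.9% at 6 h, and for Foxo1 it is what chose the gene. Between 6 h and 2 h it held for 0 of 3 members and for 22.6% of all genes. Neither Foxo3 nor Foxo4 was called by limma against control, where 0.774% of genes were called at 2 h and 1.6% at 6 h. None of the 3 was called between the times, where 0.143% of genes were. In the authors' deposited table the fold change from control was 2.37 at 2 h and 2.88 at 6 h for Foxo1, 1.21 and 1.89 for Foxo3, and 1.53 and 1.27 for Foxo4. The adjusted p in the authors' deposited table was 0.0945 for Foxo3 at 6 h and 0.222 for Foxo4 at 2 h.

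Because RPKM is scaled by length, the levels of the 3 genes can be added and set against each other within a library; library scaling leaves the shares as they are, but not the sums. Foxo6, with a control mean of 1.76 RPKM against 1.65 RPKM for Foxo3, was left out of the sum. The summed level of the 3 genes was 51.9, 35.4 and 36.5 RPKM in control, 68.8, 72.8 and 56.8 RPKM at 2 h, and 65.7, 53.4 and 63.1 RPKM at 6 h. In these values the 2 h libraries lay above the controls, 6 h replicate 2 lay only just above control replicate 1, and the 2 h and 6 h groups overlapped. Scaled by TMM factors, an alternative added after the data were seen, the order of those libraries was reversed, with a sum of 50.2 RPKM in 6 h replicate 2 and 53.2 RPKM in control replicate 1, so control and 6 h overlapped. The sum at 2 h stayed above control with that scaling, at 59.4 to 73.4 RPKM against 36.1 to 53.2 RPKM. Foxo4 supplied most of it in all libraries, 82.1 to 86.4% in control, 76.3 to 83.5% at 2 h and 68.7 to 75.3% at 6 h.

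The share of Foxo1 was 9.97, 12.6 and 13.3% in control, 13.6, 19.1 and 20.2% at 2 h, and 20.1, 25.8 and 23.4% at 6 h. All hypoxic shares lay above all control shares, although 2 h replicate 1 was only just above the highest control. The share, like the sum above, contains the Foxo1 level that chose the family, so its difference from control is a description. Group means were 11.97 ± 1.77, 17.7 ± 3.52 and 23.1 ± 2.86% (SD, n = 3). Foxo4 stood 7.15 ± 1.33 times above Foxo1 in control, 4.65 ± 1.28 times at 2 h and 3.15 ± 0.548 times at 6 h. Between 6 h and 2 h, the exact permutation p (two-sided) was 0.2 for the Foxo1 share and 0.1 for the Foxo4 share, and 0.1 is the smallest that 3 against 3 libraries allow. Counted as reads rather than per length, the Foxo1 share was higher, 19.3, 27.4 and 34.6%, in the same order.

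**Figure D3:**
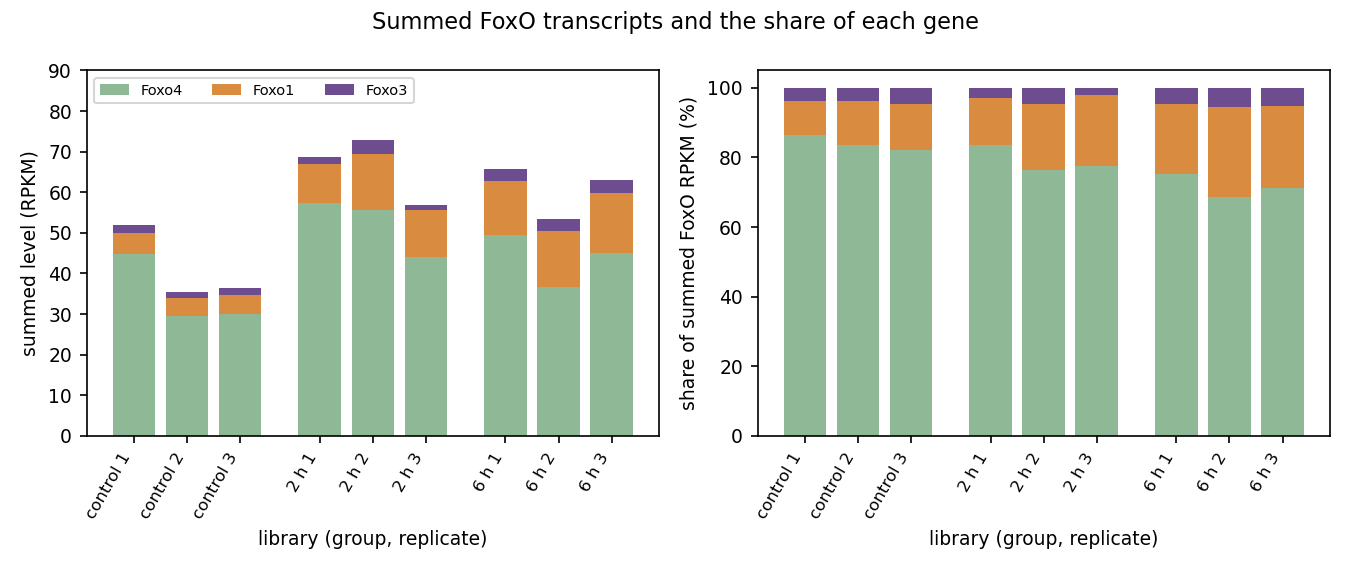
Summed level of Foxo4, Foxo1 and Foxo3 (RPKM, left) and the share of each in that sum (%, right), as stacked bars for each library. Without TMM scaling, under which control and 6 h overlap, the sum was 35.4 to 51.9 RPKM in control and 53.4 to 72.8 RPKM in hypoxia, and the Foxo1 share reached 20.1 to 25.8% at 6 h.

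Other forkhead genes, among them Foxo6, gave a comparison outside the 3 members. Of 12 such genes, 11 were tested, and limma called 0 of them in each comparison; at an unadjusted p under 0.05 there were 0 at 2 h, 1 at 6 h and 3 between the times. Over all tested genes, 20.1% had an unadjusted p under 0.05 at 2 h, 19.1% at 6 h and 16.4% between the times. Foxo6, the fourth FoxO gene of mammals, stood at 1.76 ± 0.476 RPKM in control, 1.33 ± 0.337 RPKM at 2 h and 1.89 ± 0.189 RPKM at 6 h. Its groups overlapped in every comparison, and the limma adjusted p was 0.388 at 2 h and 0.816 at 6 h.

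The proteins that act on FoxO factors were followed at the transcript level in 3 lists of 50 genes, of which 47 were tested: kinases and a phosphatase, 14-3-3 proteins, and modifiers and partners. None was called by limma at 2 h, at 6 h or between the times, with 10, 6 and 6 genes at an unadjusted p under 0.05, against the 20.1%, 19.1% and 16.4% of all genes. The edgeR test called 0 in each comparison, where it called 1.18%, 2.37% and 0.601% of all genes. The DESeq2 test called 6, 5 and 2, where it called 11.1%, 8.85% and 7.15% of the genes it gave an adjusted p. Groups did not overlap for 23.4% of the 47 at 2 h, 19.1% at 6 h and 12.8% between the times, each below the share over all genes. The median log2 difference was -0.02, 0.02 and -0.01 in the same order, against 0.00, 0.05 and 0.05 over all tested genes.

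Among the kinases, Akt2, the main Akt isoform of insulin signalling in muscle, which phosphorylates FoxO proteins, stood at 117, 108 and 103 RPKM in control and 145, 130 and 113 RPKM at 2 h, with overlapping groups (log2 0.24, limma adjusted p = 0.250). Mapk14, the stress kinase p38α, was below control in every 2 h library (28.0 against 34.2 RPKM, log2 -0.28, limma adjusted p = 0.163). Prkaa1, a catalytic subunit of the energy sensor AMPK, which phosphorylates Foxo3, was below control in every 6 h library (2.12 against 2.82 RPKM, log2 -0.34, limma adjusted p = 0.233). Of the 14-3-3 genes, Ywhag had 49.98 RPKM at 6 h and 61.5 RPKM in control (-0.31, limma adjusted p = 0.177), again without overlap.

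The modifiers and partners held the smallest p-values of the regulators at 2 h. Hdac5, a class IIa histone deacetylase, stood at 16.2, 14.3 and 14.02 RPKM in control, 20.9, 23.2 and 20.6 RPKM at 2 h, and 17.0, 13.3 and 16.4 RPKM at 6 h. The 2 h libraries thus lay above all others, with a difference from control of 0.53 ± 0.11 (log2, SE; limma adjusted p = 0.0626) and of 6 h from 2 h of -0.47 ± 0.11 (limma adjusted p = 0.120). Xpo1, the exportin that carries FoxO proteins out of the nucleus, was below control in all hypoxic libraries, with means of 6.77 RPKM in control, 4.17 RPKM at 2 h (log2 -0.65, limma adjusted p = 0.0982) and 4.81 RPKM at 6 h (-0.47, limma adjusted p = 0.197). Smad3, a TGF-β signal transducer that partners FoxO factors, averaged 17.7, 10.9 and 12.7 RPKM (2 h log2 -0.68, limma adjusted p = 0.104; 6 h -0.50, limma adjusted p = 0.197). Ppargc1a, the mitochondrial coactivator PGC-1α, was highest in 2 h replicate 2, at 17.2 RPKM, and ranged from 3.45 to 10.8 RPKM in the other 8 libraries.

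Genes reported as FoxO targets formed 4 lists of 64 genes, of which 60 were tested. At 2 h, when Foxo1 was already higher, limma called 0 of 60, and 19 had an unadjusted p under 0.05, against 20.1% of all genes. The edgeR test called 1, against 1.18% of all genes. The DESeq2 test called 15, of which 11 rose, against 11.1% of all genes in either direction and 5.81% that rose. Groups did not overlap for 38.3% of the targets at 2 h, 15 higher and 8 lower, against 27.5% of all genes (14.9% higher and 12.6% lower). At 6 h, 2 of 60 rose by limma and 0 fell, against 0.999% of all genes that rose, and groups did not overlap for 26.7%, against 25.9% of all genes. Between the times limma called 0 of 60, with 13 at an unadjusted p under 0.05, against 16.4% of all genes; edgeR called 0 and DESeq2 5 (7.15% of all genes), and groups did not overlap for 30% against 22.6% of all genes. The median log2 difference of the targets was 0.03, 0.08 and -0.01 in the 3 comparisons. Which of these genes FoxO proteins bound in these muscles was not measured.

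The 2 targets that rose at 6 h were Fbxo21 and Sesn1. Fbxo21, a ubiquitin ligase subunit reported as FoxO-dependent in mouse muscle, stood at 2.41, 1.96 and 2.28 RPKM in control, 2.72, 2.46 and 2.93 RPKM at 2 h, and 5.14, 3.69 and 4.65 RPKM at 6 h. Its 3 groups did not overlap, with the larger step between 2 h and 6 h. The rise at 6 h was 0.87 ± 0.13 (log2, SE; limma adjusted p = 0.0243), and the difference of 6 h from 2 h was 0.63 ± 0.13 (limma adjusted p = 0.0938). Sesn1, a sestrin that restrains mTORC1 and limits oxidative damage, stood at 7.73, 7.90 and 8.93 RPKM in control, 12.3, 15.01 and 9.19 RPKM at 2 h, and 14.7, 16.4 and 13.5 RPKM at 6 h. Every hypoxic library lay above the controls, and the hypoxic groups overlapped. The rise at 6 h was 0.82 ± 0.16 (log2, SE; limma adjusted p = 0.0475), and the difference at 2 h was 0.52 ± 0.16 (limma adjusted p = 0.133).

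Both calls were close to the threshold. Fbxo21 was no longer called without control replicate 2, control replicate 3, 6 h replicate 1 or 6 h replicate 3, with an adjusted p of up to 0.106 on leaving out 1 library. Sesn1 was no longer called on leaving out any single control or 6 h library or 2 h replicate 1, with an adjusted p of up to 0.147. Without the 3 libraries of high matrix genes neither was called (adjusted p = 0.203 and 0.327, log2 0.89 and 0.83). The log2 differences on leaving out 1 library stayed at 0.77 to 0.99 for Fbxo21 and 0.75 to 0.89 for Sesn1.

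The FoxO element GTAAACA, the core of the sequence that FoxO proteins bind, was searched on both strands of the RefSeq promoter windows. It occurred in 3.65% of all 32851 windows and in 9 of the 62 windows of target genes (14.5%), which belong to Adipor1, Adipor2, Bcl2l11, Txnip, Trim63, Bbc3, Sesn1, Btg1 and Mxi1. One of the windows of Sesn1 is printed because Sesn1 rose at 6 h and holds the element, here as the reverse complement TGTTTAC (capitals) beginning at position 22 after the start. The window of Fbxo21 did not hold these letters. The insulin response element CAAAACA occurred in 6.45% of the target windows and 6.28% of all windows. For the hypoxia cores, GCGTG occurred in 54.8% of the target windows against 32.4% of all, and ACGTG in 21% against 19.6%. The E-box, CACGTG, occurred in 12.9% against 7.15%, and each of its occurrences also holds ACGTG. A match is a description of sequence, and binding was not measured.
Sesn1 promoter, chr10:41810324-41810623, plus strand, GRCm38.p6: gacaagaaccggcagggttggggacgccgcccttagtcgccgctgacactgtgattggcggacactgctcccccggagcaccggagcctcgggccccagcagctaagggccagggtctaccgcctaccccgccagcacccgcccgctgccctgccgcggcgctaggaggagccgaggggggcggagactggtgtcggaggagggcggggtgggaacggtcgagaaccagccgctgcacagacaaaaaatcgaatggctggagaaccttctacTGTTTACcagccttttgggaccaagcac

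Of the 9 protein breakdown targets, limma called 0 at 2 h, and 1 rose at 6 h. Over all tested genes, 0.774% were called at 2 h and 0.999% rose at 6 h. Groups of these targets did not overlap for 33.3% at 2 h, 22.2% at 6 h and 22.2% between the times. Over all genes this held for 27.5%, 25.9% and 22.6%. Among them, Fbxo32 (atrogin-1, with Gm15943 on the opposite strand) did not follow Foxo1 over time. It stood at 64.8, 68.3 and 91.9 RPKM in control, 148, 221 and 109 RPKM at 2 h, and 63.4, 60.7 and 91.4 RPKM at 6 h. The 2 h libraries lay above all others, and the 6 h range lay close to that of the controls, while Foxo1 was at its highest mean. The difference was 1.04 ± 0.26 at 2 h (log2, SE; limma adjusted p = 0.0833), -0.07 ± 0.26 at 6 h (limma adjusted p = 0.916) and -1.11 ± 0.26 for 6 h against 2 h (limma adjusted p = 0.115). Trim63 (MuRF1) stood at 168, 419 and 374 RPKM in control, 270, 641 and 342 RPKM at 2 h, and 243, 382 and 280 RPKM at 6 h. Its groups overlapped throughout, with log2 differences of 0.39 at 2 h (limma adjusted p = 0.617) and -0.01 at 6 h (limma adjusted p = 0.994). Fbxo30 (MUSA1) was lower than control in all hypoxic libraries, 1.90 ± 0.431 RPKM at 2 h and 1.85 ± 0.200 RPKM at 6 h against 2.89 ± 0.311 RPKM (limma adjusted p = 0.116 and 0.108).

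Within the 2 h group, replicate 2 held the highest values of Foxo1, Foxo3, Fbxo32, Trim63 and Ppargc1a, but not of Foxo4 or Fbxo21. Without that library Fbxo32 was still higher at 2 h, at 148 and 109 RPKM against at most 91.9 RPKM in control.

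**Figure D4:**
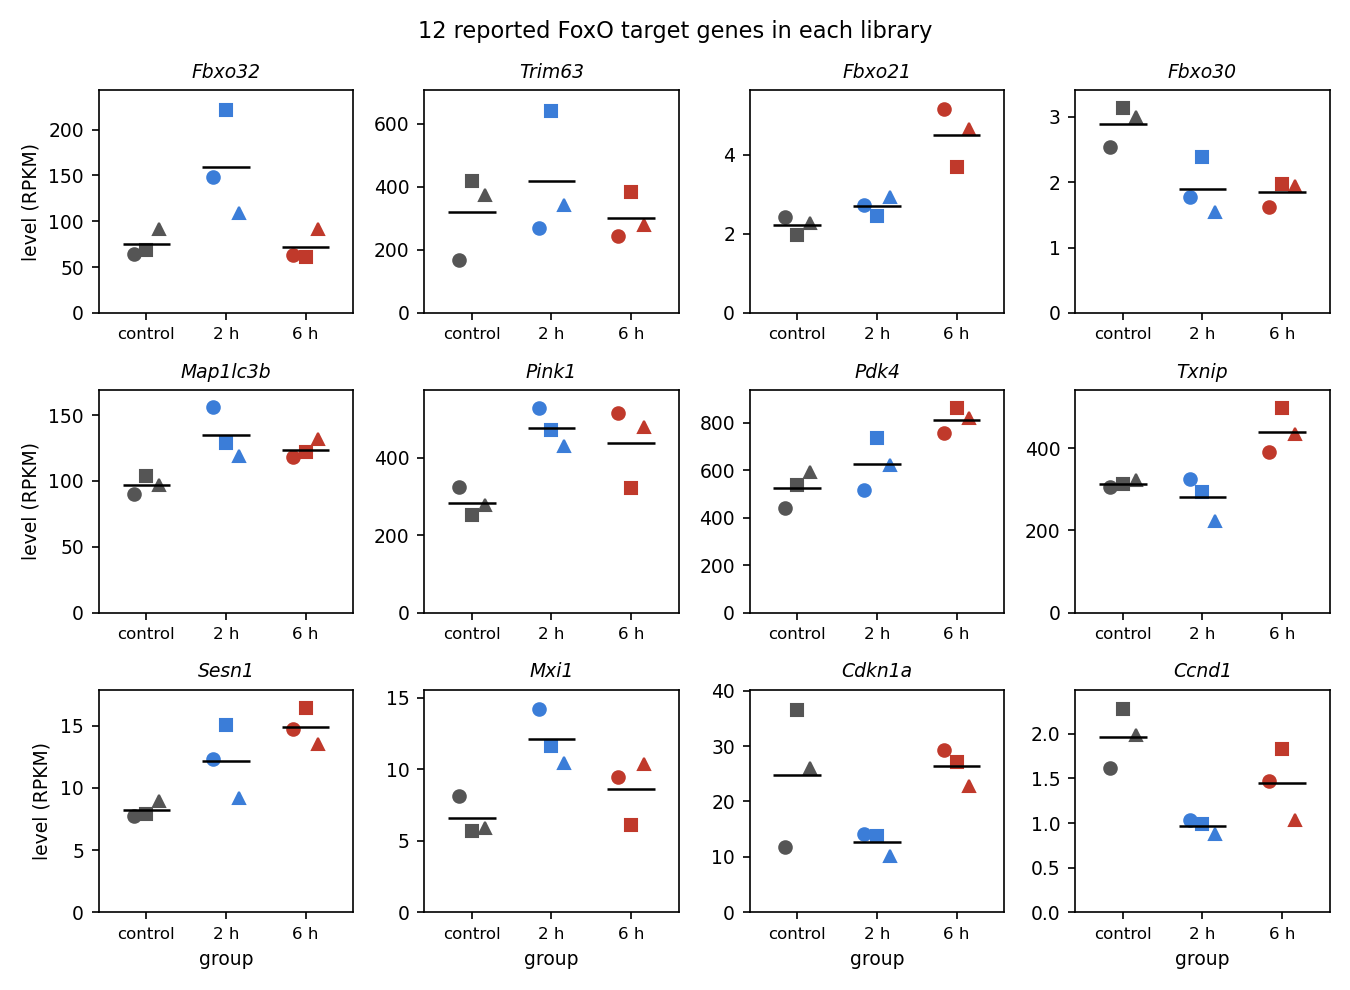
Levels (RPKM, linear axes from 0) of 12 reported FoxO targets in the 9 libraries, with circles, squares and triangles for replicates 1, 2 and 3 and lines at group means. Fbxo32 was high at 2 h alone, at 109 to 221 RPKM, whereas Fbxo21 and Sesn1 had their highest means at 6 h, 4.49 and 14.9 RPKM.

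Of 15 tested autophagy targets 0 were called by limma in any comparison, with 6 at an unadjusted p under 0.05 at 2 h, 5 at 6 h and 1 between the times, against 20.1%, 19.1% and 16.4% of all genes. At 2 h their groups did not overlap for 7 higher genes and 1 lower gene (53.3% in all), against 27.5% of all tested genes, 14.9% higher and 12.6% lower. The share was 33.3% at 6 h, against 25.9% of all genes, and 26.7% between the times, against 22.6%. Pink1, the kinase that marks damaged mitochondria, stood at 324, 252 and 278 RPKM in control, 529, 472 and 432 RPKM at 2 h, and 517, 323 and 480 RPKM at 6 h. The 2 h libraries lay above all controls (log2 0.75 ± 0.18 SE, limma adjusted p = 0.0778), and 6 h replicate 2 lay within the control range (6 h log2 0.61, limma adjusted p = 0.126). Map1lc3b, which encodes the LC3 protein of autophagosomes and overlaps Gm20388, stood at 90.2, 104 and 96.7 RPKM in control, 156, 129 and 119 RPKM at 2 h, and 118, 122 and 132 RPKM at 6 h. Every hypoxic library was above control (2 h log2 0.47, limma adjusted p = 0.0818; 6 h 0.35, limma adjusted p = 0.156). Pik3c3, the autophagy PI3 kinase, averaged 6.39, 7.83 and 8.30 RPKM and was likewise above control in all 6 hypoxic libraries (6 h log2 0.35 ± 0.08 SE, limma adjusted p = 0.0632).

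Targets in insulin signalling and fuel use, 14 tested, had 0 calls by limma. In the 3 comparisons 4, 4 and 7 genes had an unadjusted p under 0.05, as did 20.1%, 19.1% and 16.4% of all genes. Groups did not overlap for 28.6%, 35.7% and 50%, against 27.5%, 25.9% and 22.6% of all genes. Pdk4, the kinase that shuts pyruvate dehydrogenase and so spares glucose, stood at 440, 539 and 591 RPKM in control, 516, 736 and 623 RPKM at 2 h, and 756, 864 and 821 RPKM at 6 h. The 6 h libraries lay above all others (6 h against control log2 0.64 ± 0.15 SE, limma adjusted p = 0.0709). Txnip, an inhibitor of glucose uptake with Gm15441 on the opposite strand, averaged 314 RPKM in control, 281 RPKM at 2 h and 440 RPKM at 6 h (6 h against 2 h log2 0.66 ± 0.15 SE, limma adjusted p = 0.109). Insr, the insulin receptor, was below control in every 6 h library (4.30 ± 0.330 against 6.25 ± 0.876 RPKM, log2 -0.49, limma adjusted p = 0.0882). Pik3ca, the catalytic PI3 kinase subunit upstream of Akt, was below control in all hypoxic libraries (8.98, 6.71 and 6.38 RPKM; 6 h log2 -0.47 ± 0.12 SE, limma adjusted p = 0.0858). Adipor1, an adiponectin receptor, and Eif4ebp1, a brake on translation, were above control in every 2 h library (log2 0.39 and 0.60, limma adjusted p = 0.0717 and 0.0897).

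Cell cycle and stress targets, 22 tested, held the called gene Sesn1 and no other call, where 0.999% of all genes rose at 6 h. At an unadjusted p under 0.05 there were 6, 3 and 3 genes, where 20.1%, 19.1% and 16.4% of all genes had one. Groups did not overlap for 36.4%, 18.2% and 22.7% in the 3 comparisons, against 27.5%, 25.9% and 22.6% of all genes. Mxi1, a Myc antagonist with Gm10197 on the opposite strand, stood at 8.13, 5.70 and 5.86 RPKM in control, 14.2, 11.6 and 10.4 RPKM at 2 h, and 9.48, 6.10 and 10.4 RPKM at 6 h. It was above control in every 2 h library (log2 0.84 ± 0.21 SE, limma adjusted p = 0.0830) and overlapped control at 6 h. Ccnd1, cyclin D1, which FoxO proteins repress and which overlaps Oraov1, averaged 1.96 RPKM in control, 0.971 RPKM at 2 h (log2 -0.74 ± 0.18 SE, limma adjusted p = 0.0781) and 1.44 RPKM at 6 h. Cdkn1a, the cell cycle inhibitor p21, varied among the controls, at 11.7, 36.5 and 26.1 RPKM, and stood at 14.1, 13.7 and 10.2 RPKM at 2 h and 29.2, 27.1 and 22.7 RPKM at 6 h (6 h against 2 h log2 1.03 ± 0.35 SE, limma adjusted p = 0.203). Klf2, a vascular transcription factor, averaged 3.92 RPKM in control, 6.82 RPKM at 2 h and 4.54 RPKM at 6 h (2 h log2 0.68, limma adjusted p = 0.0993).

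The genes whose levels ran most like those of each FoxO gene were found by Pearson's r of log2(RPKM + 0.5) over the 9 libraries, among 10357 genes with a mean of at least 1 RPKM. These values describe libraries that share groups and depth, and they carry no test. For Foxo1 the highest were BC031353 (r = 0.986), Nub1, an adaptor for ubiquitin-like proteins (0.985), Tmem52 (0.985), Cry2, a repressor of the circadian clock (0.982), and Ascc1 (0.971). Cry2 had 5.27 ± 0.215 RPKM in control, 8.51 ± 0.391 RPKM at 2 h and 9.57 ± 0.274 RPKM at 6 h, and it overlaps D930015M05Rik on the opposite strand. The most opposite were Cnnm4 (r = -0.974), Ccdc69 (-0.973) and Cpeb1, which controls mRNA polyadenylation (-0.968). Cpeb1 had 8.81 ± 0.932 RPKM in control, 4.04 ± 0.266 RPKM at 2 h and 3.20 ± 0.631 RPKM at 6 h. With any 1 library left out, r stayed at 0.965 to 0.995 for the 5 alike genes and at -0.987 to -0.955 for the 3 opposite ones. The ranking was not repeated, so these ranges hold only for genes picked over all 9 libraries.

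Foxo3 ran most like Spna2, a spectrin (r = 0.958), the RNA helicase Dhx30 (0.947), Myst2, a histone acetyltransferase (0.937), Zc3h4 (0.936) and Inf2, a formin (0.933), and most opposite to Sirt6 (-0.922), Itgb6 (-0.915) and Ccdc58 (-0.908). Spna2 averaged 8.37, 9.08 and 10.8 RPKM in control, at 2 h and at 6 h. Among the genes that ran most like Foxo4 were Tsc2, the tuberin subunit of the complex that restrains mTORC1 (r = 0.975), Vapb (0.967), the microRNA-processing enzyme Drosha (0.967) and Kat2b, an acetyltransferase also listed among the FoxO modifiers (0.965). Tsc2, which overlaps Pkd1 on the opposite strand, averaged 16.9, 21.4 and 19.3 RPKM, and Kat2b 18.2, 26.8 and 22.3 RPKM, in the order of control, 2 h and 6 h. The most opposite were Slc22a4 (-0.979), Dok5 (-0.968) and Fbln7 (-0.955). Slc22a4 averaged 2.06, 0.767 and 1.19 RPKM in the same order. None of the genes named here was on the lists of more than 1 FoxO member.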

How the data were processed

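Plantaris RNA was sequenced as 9 TruSeq paired-end libraries, per the labels' protocols, in 3 groups read from the sample titles. Per the submitters' processing notes, the build was mm9 and the tools were TopHat2, Bowtie2, bedtools, SAMtools and FastQC, with no version given. The deposited table gives RPKM per gene and library as made by the authors (a unit recognised from its values), each gene's highest raw read count over the libraries, and the authors' fold scores and p-values, whose test is not given in the sources used here. Low RPKM values move in steps, which returned whole reads (within 0.1) for 100.0% of 40147 values under 500 reads.

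The tests used limma 3.58.1 (R 4.3.3) with a mean-variance trend on log2(RPKM + 0.5), over all 9 libraries and the 13309 genes with a mean of at least 0.5 RPKM, with Benjamini-Hochberg adjustment and a threshold of 0.05. The added 0.5 understates fold changes of genes at low levels, most of all near 0.5 RPKM. For Foxo3 at 6 h against control the log2 difference was 0.75, and 0.88 with 0.1 added instead. Alternatives included edgeR 4.0.16 and DESeq2 1.42.0 on the recovered reads. Libraries are not stated to be separate mice, so p-values measure the spread between libraries. Members and gene lists were chosen with earlier results of these data known. Named genes come from a rule: the 3 members, called list genes and otherwise up to 3 genes of the smallest p per list and comparison, some other forkhead genes, and the 5 most like and 3 most opposite genes of each member. RP24-337A16.1, the 12 genes plotted and those described beside 2 h replicate 2 were picked after their values were seen. Some genes that the rule names are not reported here. Of the list genes, 6 had no row used here and Ikbke was under the filter.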

Additional observations from a re-analysis of the deposited data

Results flagged for a closer look

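A total of 3 genes of the FoxO lists had all 2 h libraries on one side of the control mean and all 6 h libraries on the other, and the adjusted p of 6 h against 2 h did not pass the threshold. Nlk, a kinase that phosphorylates FoxO proteins, averaged 1.84 RPKM in control, 2.02 RPKM at 2 h and 1.49 RPKM at 6 h (log2 difference of 6 h from 2 h -0.34, limma adjusted p = 0.179). Ppp2ca, the catalytic subunit of the phosphatase PP2A, averaged 18.6, 17.7 and 21.3 RPKM (0.26, limma adjusted p = 0.278), and another gene lies on its opposite strand. Angptl4, a secreted inhibitor of lipoprotein lipase, averaged 14.5, 7.12 and 20.1 RPKM (1.44, limma adjusted p = 0.168), and its controls ranged from 5.78 to 22.8 RPKM.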

How the results depend on the processing

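The Foxo1 differences from control stayed within 1.03 to 1.30 (log2) at 2 h and 1.35 to 1.51 at 6 h under every alternative run, leaving out 1 library included. Foxo3 at 2 h turned to -0.063 without 2 h replicate 2, and otherwise lay at 0.07 to 0.52. Library weights, which set control replicate 3 at 8.24 and the other libraries at 0.352 to 1.98, called Foxo3 at 6 h (0.73) and Foxo4 at 2 h (0.75) and 6 h (0.61), and DESeq2 called Foxo4 at 2 h (0.58). Length scaling matters for the Foxo1 share, which counted in reads was 19.3% in control, 27.4% at 2 h and 34.6% at 6 h.

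The count of called genes moved strongly, and the cause was not tested. At 2 h against control (103 genes) it was 29 with no mean-variance trend, 3068 with library weights, 6 with a term for the 3 matrix libraries, 0 without them, 157 by edgeR and 1381 by DESeq2. At 6 h (213) it was 4113 with library weights, 73 with only the groups compared, 374 with the term, 0 without the 3 libraries and 1129 by DESeq2. Between the times (19) it was 11 with TMM scaling, 6 with no trend, 119 with weights, 3 with only the groups compared, 99 with the term, 2 without the 3 libraries, 80 by edgeR and 893 by DESeq2. Leaving out 1 library gave 0 to 396, 10 to 417 and 0 to 9 in the 3 comparisons.

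Of 47 FoxO regulators tested, 9 were called at 2 h and 11 at 6 h with weights, which called 3068 and 4113 of all 13309 genes. By DESeq2 6, 5 and 2 were called, where it called 11.1%, 8.85% and 7.15% of the genes it gave an adjusted p. Leaving out 1 library gave 0 to 2 at 2 h and 0 in the other comparisons. FoxO targets called at 2 h were 22 with weights, 1 by edgeR and 15 by DESeq2, and 0 to 3 on leaving out 1 library. At 6 h they were 1 with no trend or only the groups compared, 18 with weights, 4 with the term, 0 without the 3 libraries, 9 by DESeq2, and 0 to 2 on leaving out 1 library. Between the times they were 1 with weights, 1 with the term, 5 by DESeq2 and 0 on leaving out any 1 library. These counts are out of 60 targets tested. Over all 13309 genes, weights called 3068, 4113 and 119 in the 3 comparisons, and the term called 6, 374 and 99. At 6 h, no trend called 186 of all genes and only the groups compared 73. At 2 h, edgeR called 1.18% of all genes. Of 59 results for named list genes, the 2 called ones lost the call under at least 1 alternative, and 38 others were called under at least 1, mostly with DESeq2 (31) or weights (29).

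Deviations of same-numbered libraries from their group means correlated at -0.331 to 0.493 between groups. For differently numbered libraries the correlations were -0.596 to 0.398. With 3 libraries per group this cannot show whether the numbers pair the libraries, and the titles give only the numbers. With the replicate number as a block, 1 gene was called at 2 h, 43 at 6 h and 2 between the times, 1 FoxO target at 6 h, and the Foxo1, Foxo3 and Foxo4 differences were as reported. Depth limits little for the members, which had at least 428 reads per library.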
